A study of Mus musculus with 5 samples.

Results

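Transporters of the SLC38 family, which carry amino acids, were examined in RNA-seq libraries made from small pools of sorted sympathetic neurons of mouse embryos at E14.5 (embryonic day). Family members were taken by gene symbol, and of the 10 members listed (*Slc38a1*, *Slc38a2*, *Slc38a3*, *Slc38a4*, *Slc38a5*, *Slc38a6*, *Slc38a7*, *Slc38a9*, *Slc38a10* and *Slc38a11*), 9 had a row among the 20224 genes of the count table. All 9 passed the filter on low counts, as did 15032 genes in all. *Slc38a5* was not analysed here.

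The study compared 2 control libraries (replicates 5 and 6) with 3 *Hif1aCKO* libraries (replicates 3, 4 and 5) to learn how loss of *Hif1a* in these neurons alters their transcriptome. Control neurons were *Hif1a* loxP/+ and *Hif1aCKO* neurons *Hif1a* loxP/loxP. Both groups carried *Isl1*-Cre, the tdTomatoAi14 reporter that Cre switches on, and the *Prph-eGFP* transgene, so the control neurons could have lost 1 of their 2 *Hif1a* alleles. Cre was a knock-in at *Isl1*, which drives recombination wherever *Isl1* has been active, the floxed segment was exon 2, and all pregnancies were non-diabetic. Each library came from 100 cells positive for both eGFP and tdTomato, and the sources call each one a biological sample without saying which share a litter.

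SLC38 transporters carry small neutral amino acids, above all glutamine, across membranes. System A members bring them into the cell together with sodium. System N members also carry them together with sodium, but in exchange for protons, and can run in either direction. Others sit on the lysosome, where amino acids leave the organelle and are sensed for mTORC1, the kinase complex that couples nutrient supply to growth. In neurons, glutamine taken up in this way is a source of glutamate and of GABA. HIF-1α, the oxygen-regulated subunit encoded by *Hif1a*, is a transcription factor whose core binding letters are ACGTG or GCGTG.

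Total counts ranged from 8254211 to 9700887 per library. *Hif1a*, counted over all of its exons, had normalized counts of 2086 and 1584 in control replicates 5 and 6, against 2747, 1757 and 2135 in *Hif1aCKO* replicates 3, 4 and 5, so the loss of 1 exon could not be read from this table. *Isl1*, whose locus carries Cre in both groups, was lower in each *Hif1aCKO* library (log2 fold change -0.67 ± 0.10 SE, edgeR adjusted p = 0.446, DESeq2 adjusted p = 2.14e-04), and *Prph* overlapped between the groups. All 16 sympathetic neuron markers were in the table, with a summed normalized count of 104705 to 126450 in control libraries and 90807 to 94184 in *Hif1aCKO* libraries. Of 8 Schwann cell precursor and glia markers, 5 were in the table, with sums of 57.5 to 122 in control libraries and 51.6 to 1634 in *Hif1aCKO* libraries. The high sum belonged to *Hif1aCKO* replicate 3, where *Fabp7* had 926 counts against 0 to 9 in the others. *Sox10* had 8 counts there. Mesenchyme markers (5 of 8 in the table) summed to 34.3 to 168 in control and 104 to 353 in *Hif1aCKO* libraries, endothelial markers (2 of 7) to 21.9 to 38.0 and 1.07 to 19.5, and the erythroid marker *Alas2* (1 of 8) to 8.33 to 13.9 and 15.0 to 31.0. *Postn* was the largest part of the mesenchyme sum, at 31.5 to 157 in control and 91.9 to 343 in *Hif1aCKO* libraries. *Col1a1*, *Col1a2*, *Col3a1* and *Lum* had at most 13 counts in any library. Sensory neuron markers (4 of 7) summed to 661 to 692 in control and 533 to 917 in *Hif1aCKO* libraries. *Prrxl1* was the largest part of that sum, at 657 to 682 in control and 528 to 890 in *Hif1aCKO* libraries. *Pou4f1*, of the same list, had 2 to 5 counts in every library. Chromaffin cell markers (6 of 6) summed to 16121 to 17504 in control and 16562 to 21996 in *Hif1aCKO* libraries. *Cartpt* was the largest part of the last sum. Within it, *Cartpt* was 2.05-fold higher, and *Chgb* and *Pnmt* were lower, in each *Hif1aCKO* library. The DESeq2 adjusted p-values were 1.68e-04, 0.708 and 0.619 in that order, and the edgeR adjusted p of *Cartpt* was 0.562. Log2 fold changes of the 4 tested chromaffin cell markers ran from -1.91 to 1.04, with a median of -0.84. In libraries of this kind, fewer cells of a type and less RNA per cell cannot be told apart. The sympathetic neuron and endothelial sums were lower, and *Alas2* higher, in each *Hif1aCKO* library than in either control. The part of these and of the glial, mesenchyme, sensory neuron and chromaffin cell markers in the SLC38 results was not tested.

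*Slc38a4* was the most abundant member, and *Slc38a11* was the one that differed most between the groups. Levels of different members were compared as RPKM (counts scaled to exon length and to library size), with all exonic bases of a gene as its length. *Slc38a4* stood at 132 ± 40.5 (SD, n = 5) over all libraries, *Slc38a2* at 30.1 ± 3.20, *Slc38a1* at 21.3 ± 1.67 and *Slc38a10* at 10.4 ± 0.753. Then came *Slc38a11* at 9.10 ± 6.53, *Slc38a7* at 6.74 ± 2.63, *Slc38a9* at 1.87 ± 0.302, *Slc38a6* at 0.529 ± 0.150 and *Slc38a3* at 0.230 ± 0.310. The system A members thus held the first 3 places, in the same order in every library. Neighbours further down did not all stand apart. *Slc38a10* was above *Slc38a11* in 3 of 5 libraries, *Slc38a11* above *Slc38a7* in 3 of 5, and *Slc38a6* above *Slc38a3* in 4 of 5. With the longest annotated transcript as the length, *Slc38a1* (50.6 ± 3.96) moved ahead of *Slc38a2* (43.5 ± 4.62), and *Slc38a11* (16.4 ± 11.8) ahead of *Slc38a10* (14.6 ± 1.06), so these places depend on the length used.

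**Figure D1:**
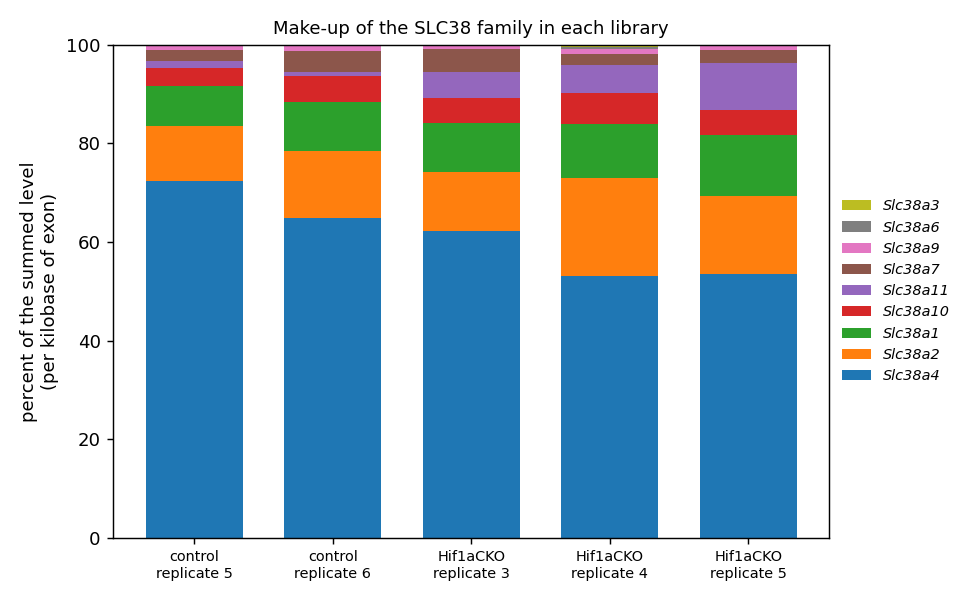
Percent of the summed SLC38 level (y axis, RPKM) held by each of 9 members in each library (x axis). *Slc38a4* takes the largest segment in all 5 libraries, 68.6% on average in control and 56.2% in *Hif1aCKO*, and the *Slc38a11* segment is thicker in all 3 *Hif1aCKO* libraries than in either control.

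The summed level of the 9 members was 270 and 218 in control replicates 5 and 6, against 212, 173 and 191 in *Hif1aCKO* replicates 3, 4 and 5. The *Hif1aCKO* libraries were thus the lower ones, at 192 ± 19.4 (SD, n = 3) against 244 ± 36.2 (SD, n = 2), and control replicate 6 and *Hif1aCKO* replicate 3 lay close to each other. Without *Slc38a4*, the sum of the other 8 members lay the other way, at 74.8 and 76.8 in control and at 80.1, 81.4 and 88.6 in *Hif1aCKO* libraries. When *Slc38a11* was left out as well, the remaining 7 members summed to 70.8 and 75.1 in control and to 68.5, 71.5 and 70.3 in *Hif1aCKO* libraries, and the groups overlapped. *Slc38a4* held 68.6% ± 5.22 (SD, n = 2) of the summed level in control and 56.2% ± 5.17 (SD, n = 3) in *Hif1aCKO* libraries. *Slc38a11* held 1.14% ± 0.514 in control and 6.92% ± 2.29 in *Hif1aCKO* libraries. These sums and shares are descriptions of level and carry no test, since with 2 libraries against 3 an exact permutation test cannot go below p = 0.1.

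In the comparison of *Hif1aCKO* with control, a gene was called when its edgeR adjusted p was under 0.05, its log2 fold change lay above 0.3 or under -0.3, and its normalized counts averaged 50 or more. By this rule 0 of 9 members were called, against 0.0% of all 15032 genes tested. At an unadjusted edgeR p under 0.05 there were 2 members, *Slc38a11* higher and *Slc38a4* lower, where 7.67% of all genes tested reached that p (3.83% higher and 3.85% lower). With DESeq2 and the same thresholds, 1 member was called, *Slc38a11*, where 0.388% of 15478 genes were called. With limma-voom, 0 members were called. The libraries of the groups did not overlap for 3 of 9 members, *Slc38a11* on the high side and *Slc38a4* and *Slc38a9* on the low side, against 25.7% of all genes tested. The median log2 fold change was -0.05 over the 9 members and 0.01 over all genes tested, with 3 members above 0 and 6 below.

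**Figure D2:**
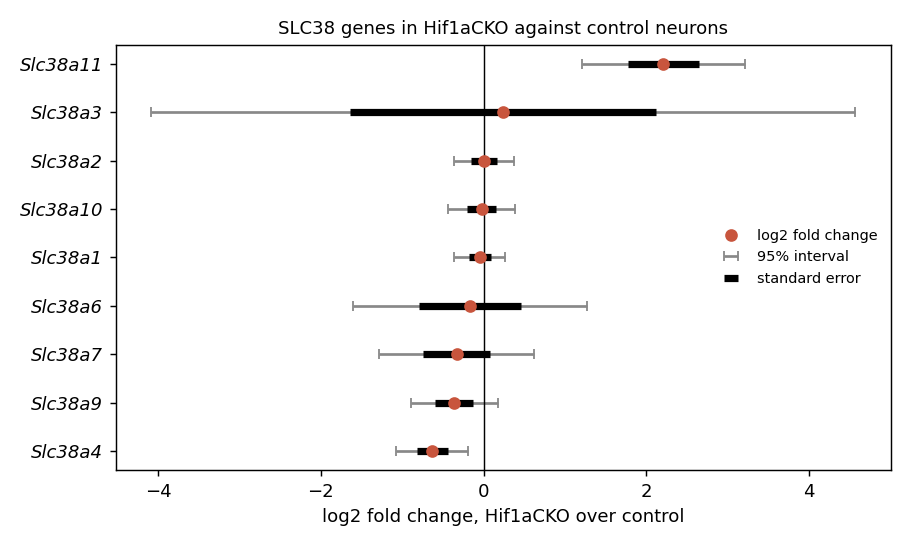
Log2 fold change of each of 9 SLC38 members, *Hif1aCKO* over control (x axis), from the edgeR fit, with the standard error (thick bar) and the 95% interval (thin bar). Only the intervals of *Slc38a11* (1.20 to 3.21) and *Slc38a4* (-1.07 to -0.19) lie on 1 side of 0, and that of *Slc38a3* is the widest.

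*Slc38a11* (ENSMUSG00000061171, chromosome 2, 65316430 to 65364034, minus strand, GRCm38) encodes a member of the family with little known transport. It had 153 and 64.0 normalized counts in control replicates 5 and 6, against 437, 375 and 689 in *Hif1aCKO* replicates 3, 4 and 5. Every *Hif1aCKO* library was above both controls, and the lowest of them was more than 2 times the higher control. The mean of the controls was 109 ± 63.0 (SD, n = 2) and that of the *Hif1aCKO* libraries 501 ± 166 (SD, n = 3). The log2 fold change was 2.21 ± 0.44 (SE; 95% interval 1.20 to 3.21), a 4.62-fold difference, with an unadjusted edgeR p of 0.000938 that ranked 23 of 15032 and an edgeR adjusted p of 0.567. DESeq2 gave an adjusted p of 1.68e-04 for the same gene, so its call rests on the test used. Leaving out single libraries gave log2 fold changes from 1.70 (without control replicate 6) to 2.96 (without control replicate 5), and 2.30 without *Hif1aCKO* replicate 3, the library with the high glial sum. *Slc38a11* is a gene that the study itself singled out in these libraries, so its place at the head of the family is not independent evidence. The study also measured it by qRT-PCR in dissected sympathetic chains and reported it higher in *Hif1aCKO*. Those measurements were not examined here.

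Per kilobase of exon, *Slc38a11* stood at 2.87 ± 1.67 in control and 13.3 ± 4.39 in *Hif1aCKO* neurons. In both controls it was below *Slc38a7* and *Slc38a10*. In *Hif1aCKO* replicates 3 and 5 it was above both of these, and in replicate 4 it lay at 9.94, between *Slc38a7* (3.97) and *Slc38a10* (11.0). The 5 genes whose log2 profile over the 5 libraries was nearest to that of *Slc38a11*, among 10841 candidates, were *Hhip*, a hedgehog-binding membrane protein, with a root mean square difference of 0.436, then *9330151L19Rik* (0.486), *Gm43336* (0.486), *Aunip* (0.487), which binds Aurora A kinase, and *Zfp93* (0.504), a zinc finger gene. *Hhip* had 44.8 and 13.0 normalized counts in control replicates 5 and 6, against 67.6, 143 and 147 in *Hif1aCKO* replicates 3, 4 and 5.

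**Figure D3:**
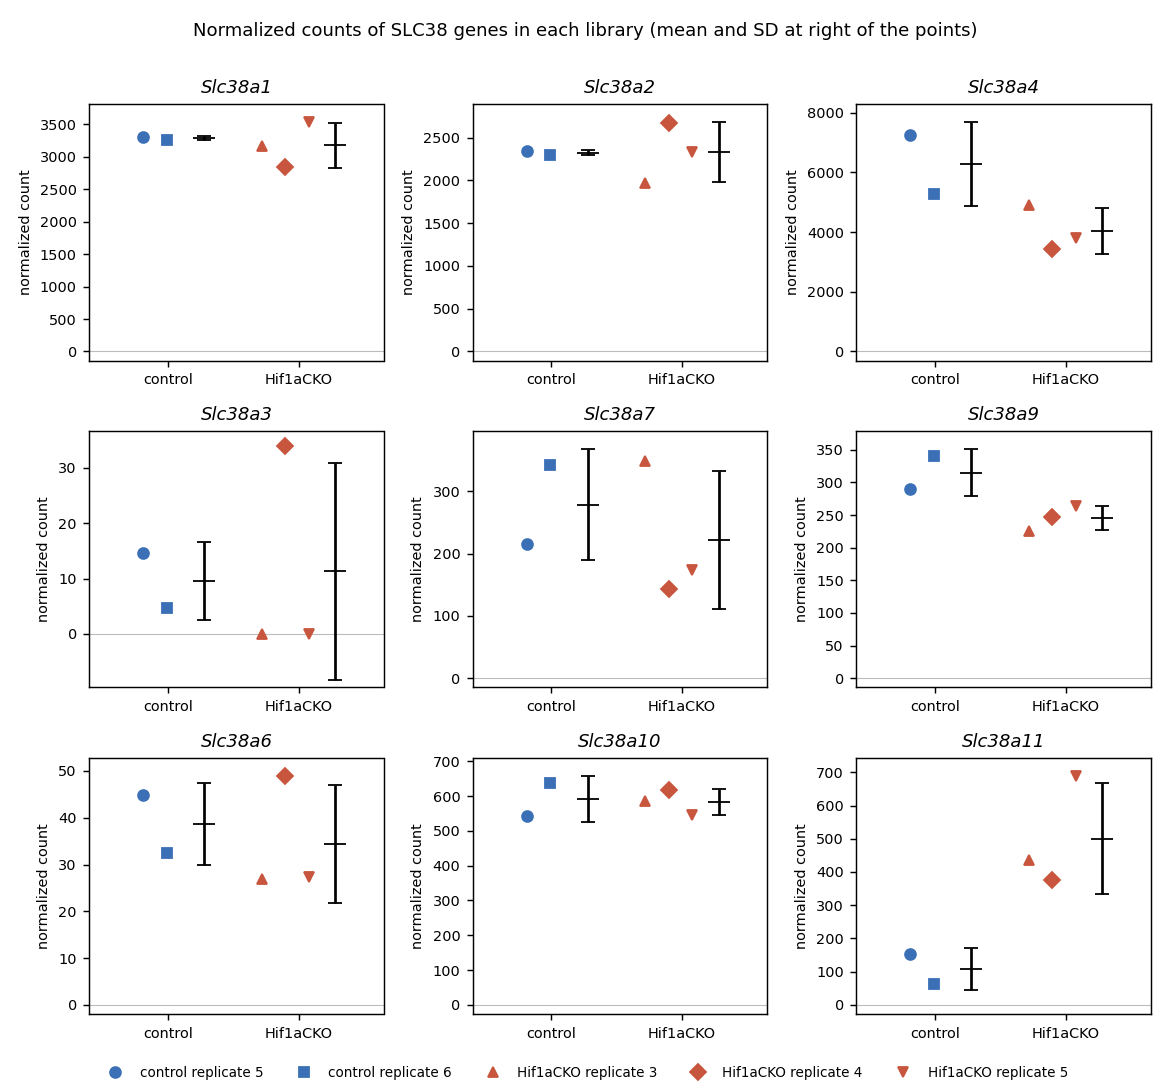
Normalized count (y axis, linear, a separate scale in each panel, grey line at 0) of 9 SLC38 members in the 2 control and 3 *Hif1aCKO* libraries, each library with its own symbol. Horizontal ticks with bars are the mean and SD of a group. The groups stand apart in the panels of *Slc38a11* (*Hif1aCKO* higher), *Slc38a4* and *Slc38a9* (*Hif1aCKO* lower).

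The system A members *Slc38a1*, *Slc38a2* and *Slc38a4* lie in a row on chromosome 15 on the minus strand (GRCm38), with 44.5 kb between *Slc38a1* and *Slc38a2* and 295 kb between *Slc38a2* and *Slc38a4*. *Slc38a4* (ENSMUSG00000022464, chromosome 15, 96994820 to 97055956) encodes SNAT4, a transporter best known from liver and placenta, and is imprinted in mouse, with expression from the paternal allele. Its normalized counts were 7263 and 5281 in control replicates 5 and 6, against 4914, 3422 and 3803 in *Hif1aCKO* replicates 3, 4 and 5. All *Hif1aCKO* libraries lay below both controls, although control replicate 6 was nearer to *Hif1aCKO* replicate 3 than to the other control. The mean of the controls was 6272 ± 1401 (SD, n = 2) and that of the *Hif1aCKO* libraries 4046 ± 775 (SD, n = 3). The log2 fold change was -0.63 ± 0.19 (SE; 95% interval -1.07 to -0.19), a 1.55-fold lower level, with an unadjusted edgeR p of 0.0104, an edgeR adjusted p of 0.598 and a DESeq2 adjusted p of 0.116. It was -0.39 without control replicate 5, -0.85 without control replicate 6 and -0.80 without *Hif1aCKO* replicate 3.

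*Slc38a1* (ENSMUSG00000023169, chromosome 15, 96571418 to 96642913) encodes SNAT1, a system A transporter found in many neurons. It had 3302 and 3258 normalized counts in control, and 3172, 2834 and 3526 in *Hif1aCKO* libraries. The controls fell inside the range of the *Hif1aCKO* libraries, and the log2 fold change was -0.05 ± 0.14 (SE; 95% interval -0.36 to 0.27). *Slc38a2* (ENSMUSG00000022462, chromosome 15, 96687392 to 96699730) encodes SNAT2, which cells induce when amino acids run short. Its normalized counts were 2344 and 2301 in control, and 1975, 2673 and 2338 in *Hif1aCKO* libraries. Here too the controls lay within the *Hif1aCKO* range, with a log2 fold change of 0.0041 ± 0.16 (SE; 95% interval -0.36 to 0.37). A difference of more than about 0.37 on the log2 scale in either direction thus lay outside the intervals of both genes.

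Among system N members, *Slc38a3* (ENSMUSG00000010064, chromosome 9, 107650634 to 107669530, minus strand) encodes SNAT3, known for glutamine transport in astrocytes, liver and kidney. Only 14 and 5 counts were found in control replicates 5 and 6, against 0, 34 and 0 counts in *Hif1aCKO* replicates 3, 4 and 5. Its counts in the *Hif1aCKO* group came from replicate 4 alone, and a count of 0 allows up to 3.22 normalized counts in replicate 3 and 2.92 in replicate 5. The log2 fold change of 0.24 ± 1.88 (SE; 95% interval -4.08 to 4.57) left a difference undetectable at this depth. The glial marker sum was highest in replicate 3, where *Slc38a3* had 0 counts, and the part of glial cells in its counts was not tested.

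The lysosomal members are *Slc38a7* (ENSMUSG00000036534, chromosome 8, 95835920 to 95853539, minus strand), which exports glutamine and asparagine from lysosomes, and *Slc38a9* (ENSMUSG00000047789, chromosome 13, 112660751 to 112738749, plus strand), an arginine sensor that signals to mTORC1. *Slc38a7* had 216 and 341 normalized counts in control, and 348, 144 and 173 in *Hif1aCKO* libraries. *Hif1aCKO* replicate 3 was the highest library of all and the other two *Hif1aCKO* libraries the lowest, so the groups overlapped, with a log2 fold change of -0.33 ± 0.41 (SE). Without *Hif1aCKO* replicate 3, which had the high glial sum, it was -0.81 with an edgeR adjusted p of 0.409. *Slc38a9* had 290 and 340 normalized counts in control, and 226, 247 and 264 in *Hif1aCKO* libraries. All 3 *Hif1aCKO* libraries were below both controls, at 246 ± 18.8 (SD, n = 3) against 315 ± 35.9 (SD, n = 2). Its log2 fold change of -0.36 ± 0.23 (SE; 95% interval -0.90 to 0.18) had an edgeR adjusted p of 0.742 and stayed between -0.47 and -0.24 when single libraries were left out.

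The remaining members are less well characterised. *Slc38a10* (ENSMUSG00000061306, chromosome 11, 120103960 to 120151346, minus strand) had 544 and 638 normalized counts in control, and 584, 618 and 546 in *Hif1aCKO* libraries. The *Hif1aCKO* libraries all fell between the controls, with a log2 fold change of -0.02 ± 0.18 (SE; 95% interval -0.43 to 0.39). An antisense transcript, *Gm11769*, shares 5.72% of its exonic bases, and as no source says that strand was used in counting, reads of the pair cannot be told apart there. *Slc38a6* (ENSMUSG00000044712, chromosome 12, 73286779 to 73354049, plus strand) was low, at 44.8 and 32.5 normalized counts in control, and at 26.8, 48.9 and 27.2 in *Hif1aCKO* libraries. Its groups overlapped, and the log2 fold change of -0.17 had an interval from -1.60 to 1.27. *Slc38a8*, which is not among the 10 listed members, had 0 and 1 counts in control and 2, 1 and 18 in *Hif1aCKO* libraries and was not tested.

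RefSeq promoter windows, from 250 bases before to 50 bases after a start site on GRCm38.p6, were found for 8 of the 10 listed members (not for *Slc38a1* and *Slc38a3*), 10 windows in all. The core HIF letters ACGTG or GCGTG, on either strand, occurred in 6 of these 8 members, and in 46.7% of 27025 genes with a window. ACGTG alone occurred in 3 of the 8 members and in 21.8% of genes, and GCGTG in 4 of the 8 and in 35.2%. *Slc38a7* and *Slc38a5* held ACGTG on both strands at overlapping positions, and *Slc38a6* and *Slc38a9* held neither motif. The 250 bases upstream of the start are shown 5′ to 3′ on the gene's own strand for the members with the largest differences, *Slc38a11* (minus strand, chr2:65364027-65364276) and *Slc38a4* (minus strand, most upstream of its 3 windows, chr15:97055957-97056206), and for *Slc38a2* (minus strand, chr15:96699729-96699978), whose groups overlapped. Capitals mark a match to either motif, read on whichever strand it occurs.
*Slc38a11*: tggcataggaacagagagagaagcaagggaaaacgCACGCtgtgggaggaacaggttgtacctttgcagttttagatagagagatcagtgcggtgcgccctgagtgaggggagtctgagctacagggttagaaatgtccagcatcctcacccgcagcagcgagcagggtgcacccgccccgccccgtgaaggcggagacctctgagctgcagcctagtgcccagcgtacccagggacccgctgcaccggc
*Slc38a4*: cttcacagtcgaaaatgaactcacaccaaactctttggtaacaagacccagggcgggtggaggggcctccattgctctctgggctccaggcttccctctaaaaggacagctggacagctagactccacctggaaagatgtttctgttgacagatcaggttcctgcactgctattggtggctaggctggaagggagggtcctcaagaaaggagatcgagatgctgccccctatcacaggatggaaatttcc
*Slc38a2*: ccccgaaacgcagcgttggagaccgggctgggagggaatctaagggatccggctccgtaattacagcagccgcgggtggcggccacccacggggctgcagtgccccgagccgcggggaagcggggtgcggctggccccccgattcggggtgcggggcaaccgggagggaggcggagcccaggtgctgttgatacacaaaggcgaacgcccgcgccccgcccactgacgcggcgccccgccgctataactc
*Slc38a11* had a single match, GCGTG on the strand opposite to the gene, whose first base lay 215 bases upstream. The *Slc38a4* window printed had none, and another of its windows had GCGTG 15 bases upstream of its own start. *Slc38a2* had none upstream and GCGTG 28 bases after the start, outside the bases shown. A match to these letters is a description of the sequence and no evidence of binding.

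Genes that work beside the SLC38 transporters were taken as 4 lists. Of 36 other amino acid transporters, 27 were tested and 0 were called by edgeR, with 2 higher and 1 lower at an unadjusted p under 0.05 (11.1% of those tested, against 7.67% of all genes), and their median log2 fold change was -0.10. DESeq2, which called 0.388% of all genes, called 1 of them, *Slc7a11*, the cystine and glutamate exchanger. It had 35.4 and 50.1 normalized counts in control replicates 5 and 6, against 421, 340 and 48.7 in *Hif1aCKO* replicates 3, 4 and 5. *Hif1aCKO* replicate 5 lay between the controls while the other two were far above them, and the log2 fold change was 2.65 ± 0.82 (SE) with an edgeR adjusted p of 0.599 and a DESeq2 adjusted p of 0.0250. *Slc7a5*, the catalytic light chain (LAT1) of an exchanger that trades internal glutamine for leucine, had 83.3 and 90.9 normalized counts in control and 143, 222 and 170 in *Hif1aCKO* libraries (log2 fold change 1.03 ± 0.34 SE, edgeR adjusted p = 0.618). Its *Hif1aCKO* libraries were all above both controls. *Slc7a3*, a cationic amino acid transporter, was also higher in each *Hif1aCKO* library (1.52 ± 0.67), and *Slc3a1*, the heavy chain of the cystine transporter of kidney and gut, lower in each (-0.94 ± 0.32). The glutamine importer *Slc1a5* (log2 fold change 0.12 ± 0.33) and the LAT1 heavy chain *Slc3a2* (-0.20 ± 0.15) overlapped between the groups.

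**Figure D4:**
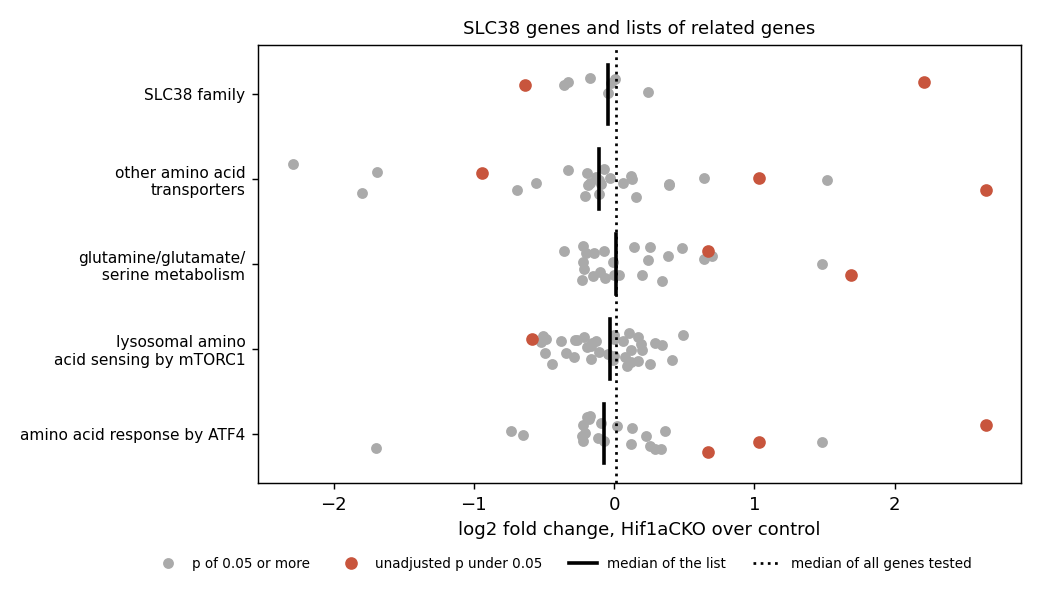
Log2 fold change (x axis, *Hif1aCKO* over control, edgeR) of each tested gene in the SLC38 family and in 4 related lists (rows), with red points at an unadjusted p under 0.05, the median of each list as a solid bar and that of all genes tested as a dotted line. The 5 medians lie between -0.10 and 0.02, near the 0.01 of all genes, and *Slc38a11* and *Slc7a11* lie farthest to the right in their rows.

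Of 27 genes of glutamine, glutamate and serine metabolism, 26 were tested and 0 called by edgeR or DESeq2, with 2 higher and 0 lower at an unadjusted p under 0.05 and a median of 0.02. The 2 genes are 7.69% of those tested, close to the 7.67% of all genes. *Gad2*, which makes GABA from glutamate, had 71.9 and 103 normalized counts in control and 153, 441 and 254 in *Hif1aCKO* libraries. Its groups did not overlap, and the log2 fold change was 1.69 ± 0.47 (SE), with an edgeR adjusted p of 0.598 and a DESeq2 adjusted p of 0.0560. Like *Slc38a11*, it is a gene the study singled out in these libraries and also reported as higher in *Hif1aCKO* by qRT-PCR. *Psat1*, an enzyme of serine synthesis that uses glutamate, had 848 and 694 normalized counts in control and 1205, 1393 and 1087 in *Hif1aCKO* libraries, all above both controls (log2 fold change 0.67 ± 0.18 SE, edgeR adjusted p = 0.598). *Pycr1*, of proline synthesis (-0.36 ± 0.23), and *Ogdh*, of the citric acid cycle (-0.22 ± 0.15), were lower in each *Hif1aCKO* library. *Glul*, which makes glutamine from glutamate (0.20 ± 0.27), and *Glud1*, which oxidises glutamate (-0.07 ± 0.20), overlapped between the groups.

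Of 40 genes of lysosomal amino acid sensing by mTORC1, 38 were tested and 0 called by edgeR or DESeq2, with 0 higher and 1 lower at an unadjusted p under 0.05 (2.63% of those tested, against 7.67% of all genes) and a median of -0.03. The lower gene was *Lamtor3*, a subunit of the Ragulator complex on which *Slc38a9* acts, with 726 and 739 normalized counts in control and 477, 409 and 581 in *Hif1aCKO* libraries. It lay lower in every *Hif1aCKO* library, as *Slc38a9* did (log2 fold change -0.58 ± 0.20 SE, edgeR adjusted p = 0.621). *Nprl2*, of the GATOR1 complex (-0.38 ± 0.23), and *Mtor* itself (-0.49 ± 0.30) were lower in each *Hif1aCKO* library as well. *Atp6ap1*, of the proton pump (-0.48 ± 0.23), overlapped. These genes and *Lamtor3* were named because their p was smallest in the list. The edgeR adjusted p was 0.720 for *Nprl2* and 0.723 for *Mtor*. Over this list 1 gene lay higher and 5 lower without overlap of the groups, against 12.9% of all genes tested in each direction.

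Of 28 genes of the amino acid response by ATF4, the transcription factor that induces *Slc38a2* when amino acids are scarce, 25 were tested and 0 called by edgeR. At an unadjusted p under 0.05 there were 3 higher (*Psat1*, *Slc7a5* and *Slc7a11*, each also a member of another list) and 0 lower, where 3.83% of all genes were higher and 3.85% lower at that p. These 3 genes are 12% of those tested. The median was -0.07, and DESeq2 called 1, *Slc7a11*. *Atf4* had 905 and 969 normalized counts in control and 1126, 1267 and 1055 in *Hif1aCKO* libraries, so the groups did not overlap (log2 fold change 0.29 ± 0.16 SE, edgeR adjusted p = 0.712).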

How the data were processed

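Bulk RNA-seq of 100 sorted cells per library was made for 2 control and 3 *Hif1aCKO* libraries. The authors trimmed reads with cutadapt (version 1.18), removed ribosomal and vector reads with Bowtie (version 1.2.2) and SortMeRNA, mapped to GRCm38 with STAR (version 2.7.0c, per the submitters' processing notes) and counted uniquely mapped reads per gene with Rsubread. The deposited values are raw counts, with no normalization.

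Counts were tested in R (version 4.3.3) with the edgeR (version 4.0.16) quasi-likelihood test, TMM factors (0.974 to 1.03), filterByExpr and Benjamini-Hochberg adjustment over all 15032 genes kept. The code was tested on simulated data. A normalized count is a count divided by its library's effective size and multiplied by the mean effective size, and RPKM divides counts by the effective size and by all annotated exonic bases of the gene. Groups came from the genotype label, with no covariate. Alternatives were RLE and upper-quartile scaling, DESeq2 (version 1.42.0), limma-voom (limma version 3.58.1), other filters and thresholds, and leaving out each library. The study used embryo littermates, and which libraries share a litter is not given in the sources used here, so p-values measure the spread between these libraries. Names, positions and lengths came from GENCODE M21 on GRCm38, while the study states release M8; 29 genes of the table had no name there. Limits from a count of 0 use 3 counts and cover counting error only, while the 95% intervals of fold changes come from the edgeR fit and include the spread between libraries. Tables used pandas 2.3.3 and numpy 2.4.6, and plots matplotlib 3.10.9, in Python 3.11.15. The planned comparison of protein sequences was not run.

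The members and gene lists were chosen with earlier results of these data known. Named genes were all members, *Hif1a*, *Isl1* and *Prph* as checks, *Slc1a5*, *Slc7a5*, *Slc3a2*, *Glul* and *Glud1* (1 further gene of this rule is not reported here), in each other list the 4 genes of smallest p whose normalized counts averaged 50 or more, the 5 profiles nearest to *Slc38a11*, and cell type markers.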

Additional observations from a re-analysis of the deposited data

How the results depend on the processing

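No SLC38 member was called by edgeR under the scalings, filters, thresholds and left-out libraries tried, nor by limma-voom, which was run on all libraries with the main filter. DESeq2 called 1 member, *Slc38a11* (log2 fold change 2.21), and 1 gene in each of the lists of other amino acid transporters and of the ATF4 response (*Slc7a11* in both), at an adjusted p under 0.05 or 0.055. Over all genes, 0 were called by edgeR, 60 by DESeq2 and 68 by DESeq2 at 0.055. Leaving out single libraries gave 0 to 4 genes, with 4 (*Parva*, *Rgs4*, *Gm10260* and *Gm26619*) without control replicate 5 and none of them a member. Where 1 control library was left, it was assumed to vary like the *Hif1aCKO* group.

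Of 106 alternative values of members' fold changes, 92 kept direction and side of the threshold and 12 turned direction. The other 2 (*Slc38a11* with DESeq2) passed the threshold. DESeq2 at 0.05 and at 0.055 is the same fit, so each DESeq2 value is counted 2 times here. *Slc38a4*, *Slc38a9* and *Slc38a11* kept their direction in every alternative run. *Slc38a2* was -0.0042 with limma-voom and -0.0044 without a filter, *Slc38a3* was -2.01 with limma-voom and *Slc38a10* was 0.015 with upper-quartile scaling. Without single libraries, the log2 fold change ranged from -0.13 to 0.029 for *Slc38a1*, -0.11 to 0.11 for *Slc38a2* and -0.37 to 1.26 for *Slc38a3*. It ranged from -0.81 to 0.035 for *Slc38a7*, -0.51 to 0.078 for *Slc38a6* and -0.13 to 0.094 for *Slc38a10*. The range of *Slc38a3* covers 4 runs only. Without *Hif1aCKO* replicate 4, the only *Hif1aCKO* library with counts of it, *Slc38a3* did not pass the filter on low counts. The median log2 fold change of the members was -0.19 with limma-voom (the value of *Slc38a6*) against -0.05 with edgeR (the value of *Slc38a1*). *Slc38a3*, which has low counts, went from 0.24 with edgeR to -2.01 with limma-voom, and so from above the median to below it. The summed SLC38 level averaged 213 per library with exonic lengths and 282 with the longest transcript, which is shorter than all exonic bases of a gene.

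No paired analysis was made, because no source says what the replicate numbers stand for or which libraries form pairs. The groups share only replicate number 5. Depth limits *Slc38a3* and *Slc38a6*, whose mean normalized counts were under 50.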

Other observations

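The genes within 500 kb of *Slc38a11* on chromosome 2 were examined after its values had been seen. *Cobll1*, a gene on the side of the *Slc38a11* 3′ end, had only 3 and 1 counts in the controls (replicates 5 and 6), against 98, 3 and 51 in *Hif1aCKO* replicates 3, 4 and 5. *Hif1aCKO* replicate 4 lay at the level of the controls while the other two were far above, so the groups overlapped (log2 fold change 4.64 ± 1.51 SE, edgeR adjusted p = 0.618, DESeq2 adjusted p = 0.0745). *Grb14*, an adaptor of receptor tyrosine kinases, had 25.0 and 53.8 normalized counts in control, and 109, 58.9 and 61.3 in *Hif1aCKO* libraries. Its *Hif1aCKO* libraries were all above both controls, by little in replicates 4 and 5 (log2 fold change 0.95 ± 0.56 SE, edgeR adjusted p = 0.720). The sodium channel genes *Scn3a* (0.16) and *Scn2a* (-0.54) and the transcription factor gene *Csrnp3* (-0.12) overlapped between the groups.

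Within 500 kb of *Slc38a4* on chromosome 15, *Slc38a1* and *Slc38a2* had log2 fold changes near 0, and the low genes *Amigo2* (-0.66) and *Pced1b* (-0.78) overlapped between the groups.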
